A study of Mus musculus with 4 samples.

Results

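The nuclei described are Ccr2 monocytes of mouse hearts 3 days after myocardial infarction, picked from single-nucleus RNA libraries by the genes they showed. A nucleus was a member if it had at least 2 of 7 monocyte genes, namely Ccr2, Klra2, Sirpb1c, Sirpb1b, Slfn4, Gpr141 and Fgr. It also had to show more distinct genes of these than of the repair macrophage genes Gpnmb, Arg1, St18, Adam8, Lilrb4b and Kcnk13, more than of the resident macrophage genes Cd163, Lyve1, Siglec1 and Folr2, and more than of the neutrophil genes Csf3r, Cxcr2, Retnlg and Hdc. At most 1 of the dendritic cell genes Flt3, Cd209a, Zbtb46 and Clec9a was allowed, and Ttn, Ryr2 and Myh6 together had to stay under 2% of the unique molecular identifiers (UMIs, each a captured RNA molecule) of the nucleus. The rule found 1520 members among the 28216 nuclei of the whole series, 1031 of them in the infarcted Q150X heart library and 489 in the infarcted WT library. Membership rests on the measured counts, so the levels of these genes in the members are given as a description.

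The study asked how a premature stop in Vegfa, made in mice by CRISPR/Cas9 to mimic a human VEGFA stop-gained variant, affects the heart at rest and after infarction. The 4 libraries were Q150X at 3 days after infarction (3dpMI), WT at 3dpMI, Q150X at homeostasis and WT at homeostasis, with 1 library each. All came from nuclei of whole hearts carried through the same droplet kit, which reads the 5′ ends of transcripts. The Q150X libraries are marked ho in their titles and HO in the design text, which leaves it unclear whether both copies carry the allele. Whether a library pools hearts is not stated, and no age, sex or strain is given. With 1 library per group no difference between genotypes could be tested against the spread between hearts. Every interval below is a 95% interval for counting error only, and "higher" or "lower" refers to these libraries.

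Classical monocytes leave the bone marrow through the chemokine receptor CCR2 and enter the infarct in the first days after injury. There they make inflammatory mediators, clear debris and mature into macrophages, losing monocyte genes as they gain those of phagocytes. In mice they are known by Ly6c2, Ccr2, Plac8, Vcan and Chil3, and nonclassical monocytes, which patrol vessel walls, by Treml4, Ace, Cd36, Spn and Cx3cr1. Interferons act on monocytes through transcription factors that bind the interferon-stimulated response element upstream of antiviral genes.

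The members had a median of 2274 UMIs and 1389 genes in Q150X and 2138 UMIs and 1344 genes in WT. Their totals were 3806023 UMIs in Q150X and 1535619 in WT, so a single UMI weighs more in WT. The 2 infarct libraries held 8125 and 9157 nuclei for Q150X and WT, with medians of 2859 and 2131 UMIs per nucleus. They shared 117 cell barcodes, which included 10 Q150X members and 9 WT members but no barcode that was a member in both. A doublet score taken at 0.8% per 1000 nuclei marked 101 Q150X members (9.80%) and 69 WT members (14.1%), which were kept because the rule does not remove them.

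Monocyte markers were higher in the members than in the groups around them. The 12 markers summed to 2247 CPM (the UMIs of a gene per 1000000 UMIs of the nuclei summed) in Q150X members and 2159 CPM in WT members. Repair macrophages, picked by a rule of the same form, had 538 and 406 CPM, and fibroblast nuclei 67.0 and 35.2 CPM. Of these 12 genes the rule used 7, and the fibroblast group left out nuclei with 2 or more of those 7. Markers of other cells were present in the members too, and they differed between the libraries. Cardiomyocyte markers summed to 957 CPM in Q150X and 2752 CPM in WT with none of the 12 at 0, endothelial markers to 1557 and 2731 CPM, and fibroblast markers to 4207 and 2564 CPM. Repair macrophages had less of each, at 910 and 2079 CPM, 1072 and 1554 CPM, and 2979 and 1768 CPM in the same order. Fibroblast nuclei, which were picked by the fibroblast markers, had 14287 and 14429 CPM of them. Neutrophil markers in the members came to 372 and 298 CPM, led by Csf3r at 185 and 158 CPM and Il1r2 at 88.3 and 38.4 CPM. Csf3r was seen in 34.7% of Q150X and 29.9% of WT members. Ly6g was at 0, as it was in the WT neutrophil group. T and NK markers came to 86.4 and 89.9 CPM, led by Skap1 at 29.7 and 29.96 CPM, with Cd3g at 0. Dendritic cell markers came to 409 and 473 CPM, led by Wdfy4 at 282 and 281 CPM, with Xcr1 at 0. The B cell sum of 1657 and 1330 CPM was nearly all Ebf1, at 1578 and 1280 CPM, while Cd79a was at 3.94 and 1.95 CPM. The part of these other-cell RNAs in the differences below was not tested, and their values stand beside the gene groups they touch. Repair macrophage markers summed to 1297 and 938 CPM, with 9 of 10 higher in Q150X (55.2% of all genes), and resident macrophage markers to 2380 and 2027 CPM.

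Ccr2 monocytes made up a larger share of nuclei in the Q150X infarct than in the WT infarct. They were 12.7% of nuclei in Q150X (interval 11.98 to 13.4, 1031 of 8120) and 5.35% in WT (4.89 to 5.83, 489 of 9149), a ratio of 2.38 (2.14 to 2.63). The share is of all nuclei that passed 500 UMIs and 300 genes. Cardiomyocyte nuclei weigh on that denominator, and among nuclei under the 2% ceiling the shares were 13.5% in Q150X and 6.30% in WT, a ratio of 2.14 (1.93 to 2.37). After every nucleus was thinned to 1000 UMIs, 8.24% of 7147 Q150X nuclei and 3.70% of 7544 WT nuclei were members. Repair macrophages stood in nearly the same proportion, at 20.97% in Q150X and 9.63% in WT, a ratio of 2.18 (2.02 to 2.35). Within the myeloid nuclei, which are monocytes, repair macrophages, resident macrophages and neutrophils together, the monocyte share was close in the libraries. It was 36.6% in Q150X (34.8 to 38.4, of 2821) and 33.6% in WT (31.2 to 36.1, of 1455), and the interval of their ratio of 1.09, 0.997 to 1.19, included 1.

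**Figure D1:**
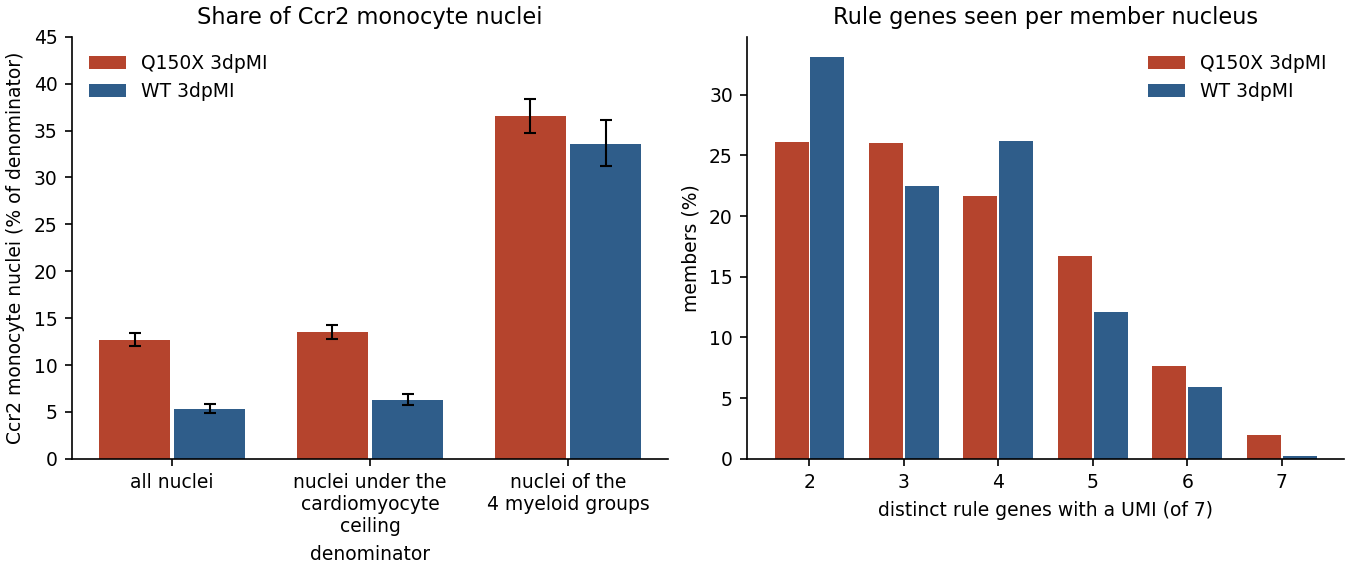
Left, Ccr2 monocyte nuclei as a percentage of 3 denominators in the Q150X 3dpMI and WT 3dpMI libraries, with exact 95% counting intervals as error bars. Right, the percentage of members with 2 to 7 distinct rule genes. The Q150X bar is higher for all nuclei (12.7% and 5.35%), and the bars of the myeloid denominator have overlapping intervals (36.6% and 33.6%).

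Uninjured hearts held almost no such nuclei. The rule found 6 of 6515 nuclei in the Q150X homeostasis library (0.0921%, 0.0338 to 0.200) and 3 of 4387 in the WT homeostasis library (0.0684%, 0.0141 to 0.200). These libraries were shallower, with medians of 995 and 933 UMIs per nucleus, and shallow nuclei can show fewer rule genes. Thinned to 1000 UMIs, 4 of 3255 Q150X homeostasis nuclei and 0 of 2000 WT homeostasis nuclei were members, the exact interval of the count of 0 reaching 0.184%. The members of uninjured hearts were too few for gene levels.

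Members differed in how many rule genes they showed. In Q150X 269 members had exactly 2 and 20 had all 7, and in WT 162 had exactly 2 and 1 had all 7. Those with exactly 2 were 26.1% of Q150X members and 33.1% of WT members. Just inside and just outside the threshold, some genes differed in both libraries and others did not. Ms4a4c, a monocyte membrane gene that the rule did not use, had 69.3 CPM in Q150X and 68.4 CPM in WT among members with exactly 2 rule genes. Nuclei with 1 rule gene that met every other clause, 419 in Q150X and 397 in WT, had 12.5 and 3.03 CPM of it. F13a1 was likewise at 747 and 909 CPM inside and 179 and 88.8 CPM outside. Plac8 was at 29.2 CPM in Q150X and 40.5 CPM in WT inside, and at 8.09 and 5.05 CPM outside. Vcan was at 367 and 415 CPM inside and 394 and 295 CPM outside. Ly6c2 was at 4.87 CPM in Q150X and 7.59 CPM in WT inside, and at 4.41 and 0 CPM outside. Nuclei outside could have no repair, resident or neutrophil gene of the rule, while members with exactly 2 rule genes could have 1 of each. The sides could thus differ in more than the count of monocyte genes. The clause on repair genes removed the most candidates. Of nuclei with at least 2 rule genes, 863 of 2006 in Q150X (43.0%) and 318 of 878 in WT (36.2%) had as many or more repair macrophage genes, and 313 and 125 of these were ties.

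The rule genes themselves were at nearly the same level in the members of both libraries, apart from Slfn4 and Fgr. Ccr2 had 352 CPM in Q150X and 348 CPM in WT, and 60.1% and 56.2% of members had a UMI of it. Klra2, an inhibitory receptor of the Ly49 family, had 147 and 155 CPM, and the orphan receptor Gpr141 had 214 and 199.9 CPM. Slfn4, a Schlafen gene that interferon switches on in mouse macrophages, was at 360.0 CPM in Q150X and 274 CPM in WT, 1.32 times (1.18 to 1.47), and 2.23 times without nuclei with 3 markers of another class. Fgr, a Src-family kinase of myeloid cells, was at 270.1 CPM in Q150X and 324 CPM in WT, 0.835 times (0.749 to 0.931). Sirpb1c and Sirpb1b are near-identical copies whose reads may have been split, and their 319.8 and 335 CPM and 322 and 324 CPM are uncertain in that sense. Few fibroblast nuclei had a Ccr2 UMI, but nuclei with 2 or more rule genes were kept out of that group. At 1000 UMIs per nucleus the rule was run again on the thinned counts, which kept 589 Q150X and 279 WT nuclei. Of these 55.2% and 44.8% had Ccr2, against 1.15% and 0.809% of fibroblast nuclei, although the rule itself picked nuclei with it.

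Classical monocyte genes outside the rule leaned towards Q150X. Among 24 genes, 17 were higher in Q150X, and the median log2 ratio was 0.22 beside 0.04 over all 12780 genes with at least 20 UMIs, of which 55.2% were higher. At 1.5-fold 1 gene was past the line upward, where 10.6% of all genes were. That gene was Plac8, which is known from infiltrating monocytes, at 54.4 CPM in Q150X and 35.2 CPM in WT, 1.55 times (1.14 to 2.13). Lyz2, lysozyme, had 506 CPM in Q150X and 341 CPM in WT (1.49, 1.35 to 1.64), and Ms4a4c had 115 and 80.8 CPM (1.43, 1.17 to 1.75). Fn1, fibronectin, had 1033 and 795 CPM (1.30), and the coagulation factor gene F13a1 1676 and 1418 CPM (1.18). The interval lay above 1 for 7 genes, where 9.65% of all genes had such an interval, and below 1 for Tgfbi alone, where 9.15% did. Tgfbi, an adhesion protein gene, was at 776 CPM in Q150X and 916 CPM in WT (0.848, 0.795 to 0.904). Other defining genes were about level. Vcan, the matrix proteoglycan versican, had 525 and 545 CPM, and Chil3 46.8 and 41.0 CPM. Ly6c2, the surface antigen that names these cells, was scarce in nuclei, with 43 UMIs (11.3 CPM) in Q150X and 13 UMIs (8.47 CPM) in WT. The same list had median log2 ratios of 0.36 in repair macrophages, 0.21 in fibroblast nuclei and 0.62 in endothelial nuclei. Over all nuclei that were not members its median was 0.97 with 24 of 24 genes higher, beside 0.15 over all genes there and 66% of them higher. The lean was thus larger outside the members than in them. Some genes of the list belong to fibroblasts as well, such as Fn1, seen in 63.8% of Q150X and 61.5% of WT fibroblast nuclei at 1000 UMIs. Lyz2 reached 13.04% of fibroblast nuclei in Q150X and 6.20% in WT at 1000 UMIs. It was in 56.7% and 41.9% of the nuclei that met the rule on thinned counts.

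**Figure D2:**
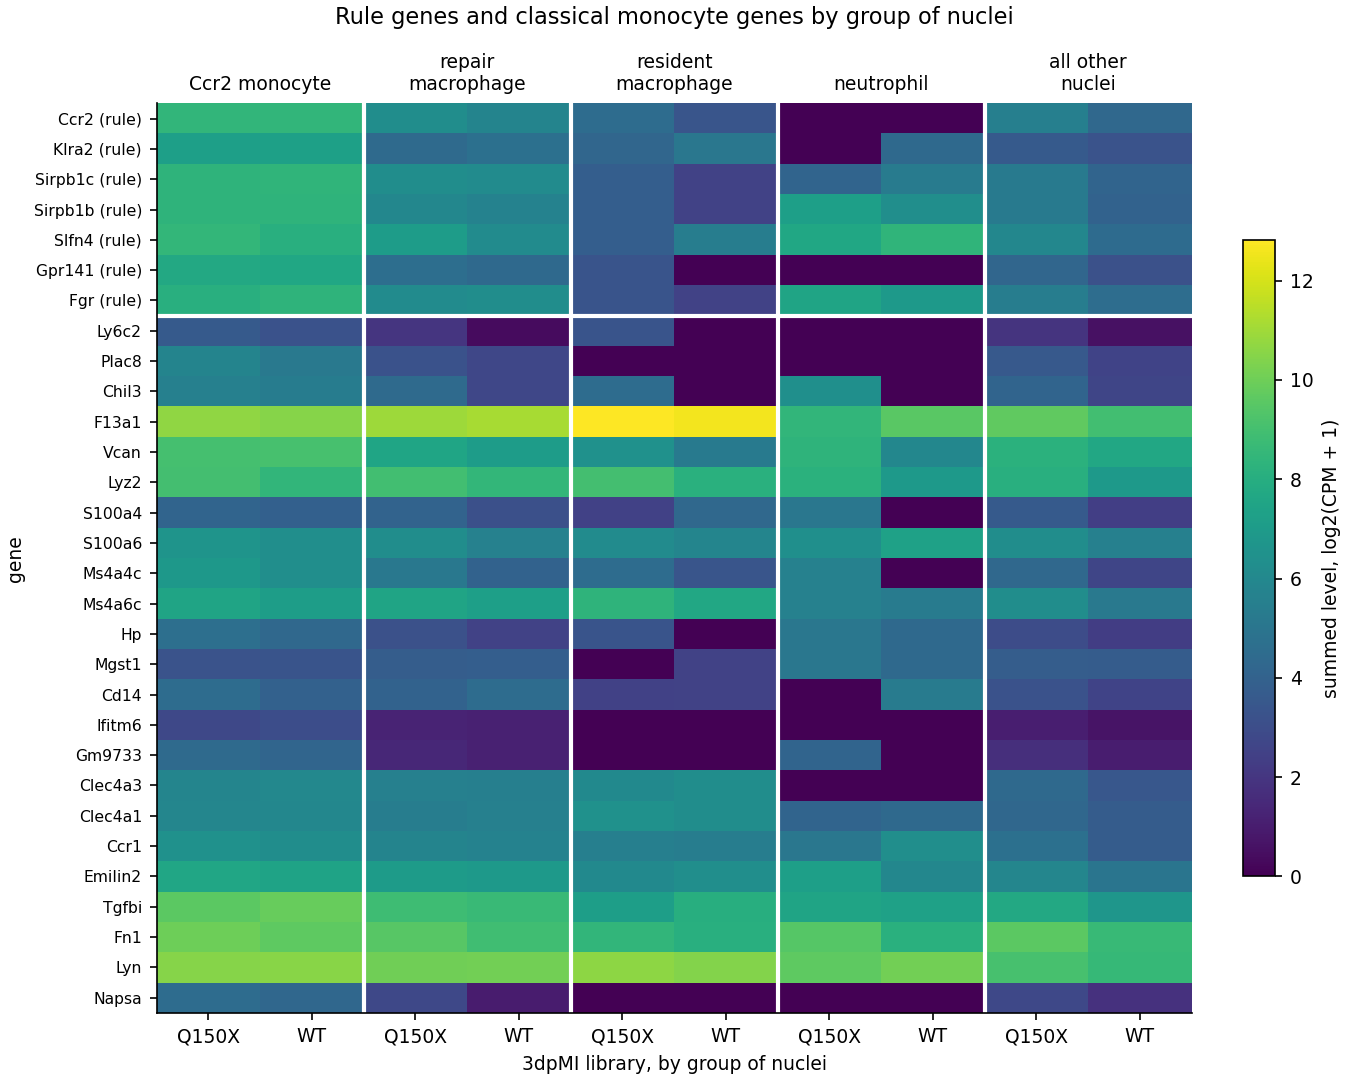
Summed level, as log2(CPM + 1), of the 7 rule genes (above the white line) and of classical monocyte genes outside the rule, by group of nuclei in the Q150X and WT 3dpMI libraries. In both libraries Vcan, Ms4a4c, Plac8, Tgfbi and Ly6c2 are higher in the Ccr2 monocytes than in repair macrophages, while F13a1 is higher in resident macrophages.

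Interferon response genes were higher in Q150X monocytes as a group. Of 50 measured genes 44 were higher in Q150X (55.2% of all genes), with a median log2 ratio of 0.32. Past 1.5-fold were 13 upward and none downward, where 10.6% and 7.9% of all genes were. The interval lay above 1 for 24 genes (9.65% of all genes) and below 1 for 2, Ifi205 and Irf1 (9.15% of all genes). Their UMIs summed to 4268 CPM in Q150X and 3503 CPM in WT. Before their values, the stretch upstream of a few of these genes is printed because it holds letters that match the response element. The motif searched was GAAANNGAAA, the core of the interferon-stimulated response element, on either strand of the 250 bases before each RefSeq gene start (GRCm38.p6, not the GRCm39 build named in the submitters' processing notes). It stood in 21 of the 41 genes of the list that the promoter table holds (51.2%), against 936 of 27025 of all its genes (3.46%). Among the rule genes 1 of 7 had it (14.3%), among classical monocyte genes 2 of 17 (11.8%), among macrophage maturation genes 1 of 22 (4.55%) and in the Schlafen family 3 of 7 (42.9%). Capitals mark the match furthest 5′, as the motif or its reverse complement. The 250 bases hold 3 matches for Isg15 and 2 each for Ifit3 and Bst2. The further ones overlap the capitals, are in lower case or lie outside the stretch. Each stretch runs 5′ to 3′ along the gene's strand. The first 3 lie upstream of genes that were over 1.5 times higher in Q150X, and the last 2 upstream of genes that were lower.
Isg15: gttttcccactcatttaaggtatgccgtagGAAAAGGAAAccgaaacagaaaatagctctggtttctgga
Ifit3: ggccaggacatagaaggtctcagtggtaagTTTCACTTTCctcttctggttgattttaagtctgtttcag
Bst2: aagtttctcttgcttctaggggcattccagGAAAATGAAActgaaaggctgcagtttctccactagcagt
Gbp2: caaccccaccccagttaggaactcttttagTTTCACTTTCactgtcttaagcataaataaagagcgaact
Ifi205: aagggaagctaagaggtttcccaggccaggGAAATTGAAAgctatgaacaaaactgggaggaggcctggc
The stretches lie at chr4:156200857-156200926 on the - strand for Isg15, chr19:34583343-34583412 on the + strand for Ifit3, chr8:71537563-71537632 on the - strand for Bst2, chr3:142620574-142620643 on the + strand for Gbp2 and chr1:174031850-174031919 on the - strand for Ifi205. The 70 bases shown for Ifit3 also stand before Ifit3b, at chr19:34607739-34607808 on the + strand, and reads of such close copies may have been split by the counting. Genes with the motif thus stood on both sides, higher and lower, and a match is a description of the letters, not of binding.

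The interferon genes furthest from 1 were antiviral effectors. Cmpk2, a mitochondrial nucleotide kinase, was at 28.6 CPM in Q150X members and 11.7 CPM in WT members, 2.44 times (1.48 to 4.28). Isg15, a ubiquitin-like modifier, was at 23.9 and 11.7 CPM (2.04, 1.22 to 3.60), and Ifit3, of a family that binds foreign RNA, at 26.8 and 15.0 CPM (1.79, 1.13 to 2.95). Ifi47, an interferon-induced GTPase, was at 7.62 and 3.26 CPM, with an interval of 0.896 to 7.74 that includes 1. Mx1, a GTPase that blocks viral replication, was seen in 182 Q150X members and 63 WT members, at 155.0 and 91.8 CPM (1.69, 1.40 to 2.04). Bst2, tetherin, was at 45.2 and 26.7 CPM (1.69, 1.20 to 2.44). Irf7, which amplifies type I interferon, was at 48.9 and 33.2 CPM (1.47). Genes on the other side were Ifi205, a PYHIN family gene, at 39.2 CPM in Q150X and 54.1 CPM in WT (0.724, 0.550 to 0.959), and Irf1 at 43.4 and 57.3 CPM (0.757, 0.581 to 0.991). Gbp2, a guanylate-binding protein, was at 15.5 and 18.9 CPM (0.821), with an interval that included 1. Irf1 and Gbp2 are known as targets of type II interferon. The other guanylate-binding protein genes of the list stood on both sides, with ratios of 1.11 for Gbp3, 0.976 for Gbp5 and 1.13 for Gbp7.

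The interferon list stood near 0 in the cell groups next to the monocytes. Its median log2 ratio was 0.05 in repair macrophages, with 28 of 49 genes higher in Q150X, where 54.7% of all genes were. It was 0.06 in fibroblast nuclei with 25 of 46 (51.7% of all genes) and 0.01 in endothelial nuclei with 24 of 46 (59.9% of all genes). Over all nuclei that were not members it was 0.35 with 47 of 50 higher, beside 0.15 over all genes there and 66% of them higher. Mx1 in repair macrophages had a ratio of 0.987 and Cmpk2 of 1.09, while Isg15 had 2.21. Per nucleus, after thinning to 1000 UMIs, 28.0% of 918 Q150X members (25.1 to 31.0) and 18.9% of 433 WT members (15.4 to 23.0) had at least 5 distinct interferon genes. Thinning left out 113 Q150X and 56 WT members as too shallow, and as sequenced 30.9% and 21.9% had at least 10. The thinned shares were 13.8% and 12.9% in repair macrophages, 6.16% and 6.47% in fibroblast nuclei and 14.2% and 12.4% in endothelial nuclei. The intervals of Q150X and WT were apart in the members, and whether the difference itself differs from that of these groups was not tested. Slfn4 is both a rule gene and an interferon target, and with the rule run without Slfn4 the median of the list was 0.42.

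**Figure D3:**
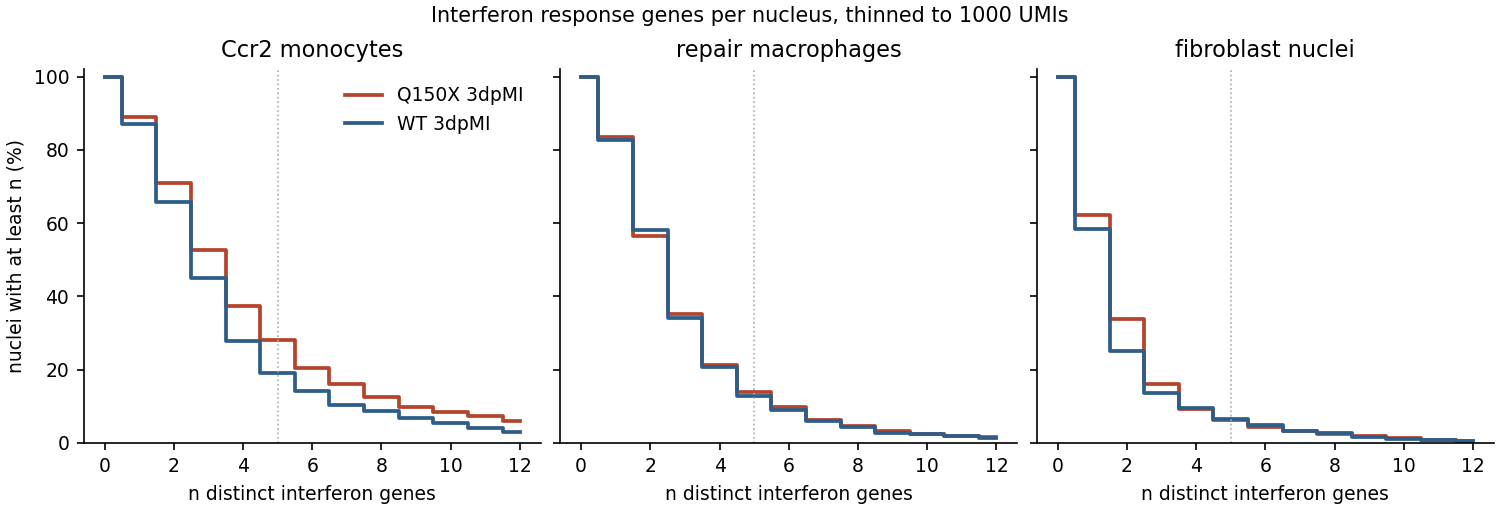
Percentage of nuclei with at least n distinct interferon response genes after thinning each nucleus to 1000 UMIs, for Ccr2 monocytes, repair macrophages and fibroblast nuclei of the Q150X and WT 3dpMI libraries. At 5 genes (dotted line) the Q150X curve of the monocytes is at 28.0% and the WT curve at 18.9%, the repair macrophages are at 13.8% and 12.9%, and the fibroblast nuclei at 6.16% and 6.47%.

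Inflammatory cytokines and chemokines were spread widely, with neutrophil-drawing chemokines on both sides. Of 21 measured genes, 14 were higher in Q150X (55.2% of all genes), with a median log2 ratio of 0.35, 7 past 1.5-fold upward and 1 downward (10.6% and 7.9% of all genes). Cxcl2, a ligand of the neutrophil receptor CXCR2, was at 111 CPM in Q150X and 52.8 CPM in WT (2.10, 1.65 to 2.70). Cxcl10, an interferon-induced chemokine for T cells, was at 29.2 and 11.1 CPM (2.63, 1.57 to 4.68), seen in 52 and 8 members. Cxcl3, another CXCR2 ligand, had 29 UMIs in Q150X and 1 in WT, a ratio of 11.7 with an interval of 1.94 to 478. Cxcl1, also a CXCR2 ligand, went the other way with 7.88 CPM in Q150X and 16.3 CPM in WT (0.484, 0.275 to 0.859). Ccl2, the CCR2 ligand that recruits monocytes, was at 129.5 and 101 CPM (1.28, 1.07 to 1.55). Il1b, the pyrogenic interleukin, was at 55.4 and 69.0 CPM with an interval of 0.633 to 1.02, and Tnf at 22.9 and 17.6 CPM with 0.836 to 2.08. Il6, Ccl3 and Il27 had 18, 22 and 19 UMIs in Q150X against 3 each in WT, and their intervals included 1. The list's median was 0.18 in repair macrophages, 0.46 in fibroblast nuclei and 0.72 in endothelial nuclei. Among the 7 genes at 3 or more times the level of all other nuclei it was -0.09. The decoy receptor gene Il1r2, which binds interleukin 1 without signalling, had 88.3 CPM in Q150X and 38.4 CPM in WT (2.30, 1.74 to 3.08), in 160 and 36 members. In repair macrophages Il1r2 had a ratio of 2.80 as well.

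Nonclassical monocyte genes leaned towards WT. Of 16 measured genes, 3 were higher in Q150X (55.2% of all genes), with a median log2 ratio of -0.39. None was past 1.5-fold upward and 4 were past it downward (10.6% and 7.9% of all genes). Treml4, a receptor that marks nonclassical monocytes, had 17 UMIs (4.47 CPM) in Q150X and 16 UMIs (10.4 CPM) in WT, 0.429 times (0.204 to 0.907). Ace, angiotensin-converting enzyme, had 41.8 and 59.9 CPM (0.697, 0.536 to 0.912), Ceacam1 31.0 and 44.9 CPM (0.690), and Spn, the sialoglycoprotein CD43, 5.26 and 9.12 CPM with an interval reaching 1.23. Cd36, a scavenger receptor and fatty acid carrier, had 219.7 CPM in Q150X and 397 CPM in WT (0.554, 0.498 to 0.616), but it is also an endothelial gene and stood at 399 and 679 CPM in the other nuclei. Fabp4, of endothelium too, had 103 and 144 CPM (0.716). On the other side stood Itga4, the integrin by which monocytes bind VCAM1, at 200.7 and 151 CPM (1.33, 1.15 to 1.55), and Cx3cr1, the fractalkine receptor, at 69.4 and 59.9 CPM with an interval of 0.910 to 1.48. After thinning, 5.88% of Q150X members (4.45 to 7.61) and 10.2% of WT members (7.48 to 13.4) had at least 3 genes of the list. Repair macrophages leaned the same way, with a median of -0.28 and 5 of 16 genes higher in Q150X (54.7% of all genes). The list's median was 0.21 in fibroblast nuclei and 0.13 in endothelial nuclei. The summed endothelial markers were lower in the Q150X members too, as given above. When nuclei with 3 or more markers of other classes were left out, which kept 223 Q150X and 156 WT members, 8 genes were measured and the median was 0.23.

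MHC class II genes, which present antigen to helper T cells, were about level between the libraries. Of 11 genes 3 were higher in Q150X (55.2% of all genes), with a median log2 ratio of -0.09. Cd74, the invariant chain, had 197 CPM in Q150X and 209 CPM in WT, its regulator Ciita 98.8 and 109 CPM, and H2-Ab1 84.1 and 72.9 CPM, and the intervals of all 3 ratios included 1. The intervals lay below 1 for H2-DMb1, part of the peptide exchanger, at 17.1 and 28.0 CPM (0.610, 0.409 to 0.919), and for the costimulator Cd86 at 83.0 and 103.5 CPM (0.802, 0.661 to 0.976). The share of members with at least 3 genes of the list was 7.84% in Q150X and 10.2% in WT after thinning, with overlapping intervals.

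Genes that monocytes gain as they become macrophages leaned towards Q150X. In the maturation list 25 of 30 had a ratio above 1, where 55.2% of all genes did, and the median log2 ratio was 0.33. Past 1.5-fold were 9 upward and 1 downward (10.6% and 7.9% of all genes), and 19 had intervals above 1 (9.65% of all genes). The repair macrophage markers given above, 1297 and 938 CPM, moved with this list, and their part in it was not tested. Apoe, which carries lipid out of cells, had 361.5 CPM in Q150X and 163.5 CPM in WT (2.21, 1.93 to 2.54), and the lipid-binding protein gene Fabp5 had 39.9 and 16.3 CPM (2.45, 1.60 to 3.91). The lysosomal proteases Ctsb, Ctsd and Ctsl had 516, 210.5 and 111 CPM in Q150X and 286.5, 115 and 59.9 CPM in WT, the last 2 with ratios of 1.83 and 1.86. The complement gene C1qb was at 114 and 61.9 CPM (1.84), and Trem2, a lipid-sensing receptor, at 42.8 and 26.7 CPM (1.60). On the other side Lpl, lipoprotein lipase, had 64.9 CPM in Q150X and 117 CPM in WT (0.554), and Adgre1, the F4/80 antigen, 309 and 323 CPM. The same transcripts were higher outside the members as well. Apoe was at 226 CPM in Q150X and 78.7 CPM in WT over all other nuclei, and the list's median log2 ratio was 0.65 in fibroblast nuclei, 0.51 in endothelial nuclei and 0.16 in repair macrophages. Among the 589 Q150X and 279 WT nuclei that met the rule on thinned counts, Apoe was seen in 40.8% and 17.2%. It was seen in 8.60% and 5.39% of fibroblast nuclei at 1000 UMIs. The share of members with at least 5 maturation genes was 59.3% in Q150X (56.0 to 62.5) and 41.8% in WT (37.1 to 46.6) after thinning, against 4.73% and 1.62% of fibroblast nuclei and 82.8% and 79.4% of repair macrophages. As sequenced, 49.3% of Q150X members and 29.4% of WT members had at least 10.

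Repair and growth factor genes were higher in Q150X members in 17 of 21 cases (55.2% of all genes), with a median log2 ratio of 0.23 and 5 past 1.5-fold upward (10.6% of all genes). Spp1, osteopontin, had 270.9 CPM in Q150X and 106 CPM in WT (2.55, 2.16 to 3.03), and the other nuclei had 258 and 83.3 CPM of it. At 1000 UMIs Spp1 was seen in 28.5% and 16.1% of the nuclei that met the rule on thinned counts. Of fibroblast nuclei 14.04% and 6.20% had it. Lgals1, galectin 1, had 85.4 and 37.8 CPM (2.26), Igf1 71.7 and 46.9 CPM (1.53), and Hmox1, heme oxygenase 1, 103 and 68.4 CPM (1.502). Pdgfb, a growth factor for mural cells, was lower, at 56.2 CPM in Q150X and 100.3 CPM in WT (0.561, 0.454 to 0.694). Tgfb1 was at 129.5 and 142 CPM with an interval that included 1. The list's median was 0.54 in repair macrophages, -0.02 in fibroblast nuclei and 0.59 in endothelial nuclei.

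**Figure D4:**
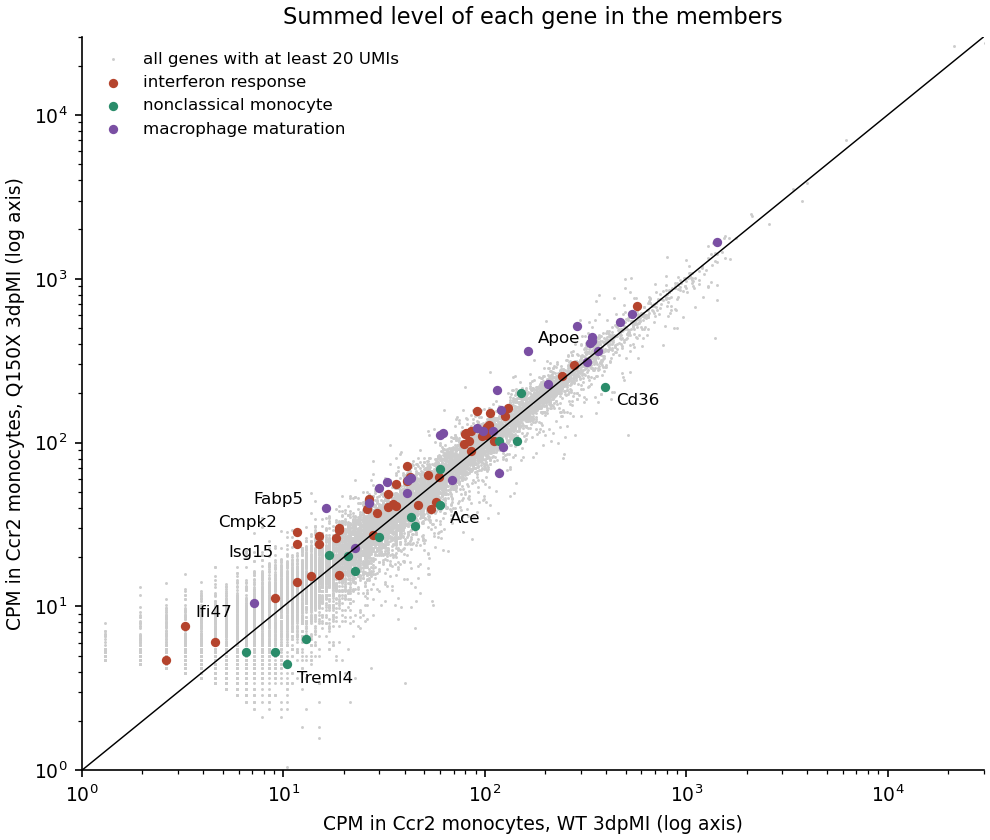
CPM of each gene with at least 20 UMIs in the Ccr2 monocytes, Q150X 3dpMI on the vertical axis and WT 3dpMI on the horizontal axis, both logarithmic, with the line of equal level. Interferon response and maturation genes lie mostly above the line (Cmpk2 at 28.6 and 11.7 CPM, Apoe at 361.5 and 163.5 CPM) and nonclassical monocyte genes mostly below it (Cd36 at 219.7 and 397 CPM).

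Vegfa, the gene that carries the Q150X stop, was between other cell groups in the monocytes. It had 183 UMIs (48.1 CPM) in Q150X members and 67 UMIs (43.6 CPM) in WT members, a ratio of 1.10 (0.829 to 1.48). The ratio depends on the nuclei kept: it was 0.248 without nuclei with 3 markers of another class and 0.651 with nuclei weighted equally, and 14 of 19 alternatives kept it above 1. Repair macrophages had 37.4 CPM in Q150X and 24.4 CPM in WT, and endothelial nuclei 18.7 and 23.7 CPM. Fibroblast nuclei, at 91.3 and 101 CPM, and cardiomyocyte nuclei, at 785 and 639.5 CPM, stood above the members in either library. A change of 1 codon cannot be read from gene counts, and the level checks neither the label nor the allele. Of 10 VEGF ligands and receptors 3 were higher in Q150X (55.2% of all genes), with a median log2 ratio of -0.26. Flt1, the VEGF receptor 1 that monocytes and endothelium both carry, had 243 CPM in Q150X and 494 CPM in WT (0.492, 0.446 to 0.542), and 314 and 439 CPM in the other nuclei. Kdr, VEGF receptor 2 of endothelium, had 69.1 and 104 CPM (0.663), and Vegfb 7.09 and 16.9 CPM (0.419). Nrp1, a co-receptor, was at 553 and 592 CPM with an interval of 0.864 to 1.01. Of these, Flt1 and Kdr are among the endothelial markers, all 10 of which had intervals below 1 (9.15% of all genes).

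The remaining lists had medians between -0.09 and 0.40. Over all genes with at least 20 UMIs the median was 0.04, 55.2% were higher in Q150X and 10.6% were past 1.5-fold upward. In the Schlafen family outside the rule 4 of 7 genes stood above 1 in Q150X, led by Slfn9 at 44.1 CPM in Q150X and 25.4 CPM in WT (1.74, 1.22 to 2.53), with a median of 0.11. Paired immunoglobulin-like and lectin receptors had 10 of 25 higher and a median of -0.09, with the inhibitory receptor gene Pilra at 73.8 and 100.3 CPM (0.736, 0.603 to 0.902). Fc receptor and Src-family signalling had 17 of 22 genes above 1 and a median of 0.13, and the adaptors Tyrobp and Fcer1g had ratios of 1.53 and 1.496. All 6 phagocyte oxidase genes, whose enzyme makes superoxide, were higher in Q150X, with Ncf1 at 91.2 and 61.9 CPM (1.47, 1.17 to 1.87) and a median of 0.24. This list had 0.05 in repair macrophages and 0.92 in fibroblast nuclei. Pattern recognition genes had 18 of 27 higher and a median of 0.07. Tlr7, which senses single-stranded RNA, had 80.4 CPM in Q150X and 52.8 CPM in WT (1.52, 1.19 to 1.97), and Nod2, a sensor of bacterial wall fragments, 33.6 and 53.4 CPM (0.630, 0.474 to 0.842). Adhesion and migration genes had 13 of 25 higher with a median of 0.03, and Pecam1, shared with endothelium, was at 222 and 329.5 CPM (0.675). Cytokine and growth factor receptors had 16 of 24 higher, with a median of 0.03 and with Il1r2 alone past 1.5-fold. Among myeloid transcription factors 21 of 40 were higher, with a median of 0.02. Fli1, an ETS factor of endothelium and blood, had 645 and 888 CPM (0.727, 0.680 to 0.777). Glycolysis and hypoxia genes had 16 of 23 higher with a median of 0.06, and the glycolytic enzyme gene Pgk1 was at 48.9 and 31.9 CPM (1.53, 1.11 to 2.14). Immediate early and heat shock genes had 10 of 20 higher with a median of 0.05, with Jun at 177 and 139 CPM (1.28) and Junb at 85.9 and 123 CPM (0.698, 0.582 to 0.840).

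Proliferation genes had the highest median of the 19 gene lists, 0.40, with 23 of 27 higher in Q150X (55.2% of all genes) and 5 past 1.5-fold (10.6% of all genes). Hmmr, a mitotic spindle gene, had 30.5 CPM in Q150X and 7.81 CPM in WT (3.90, 2.15 to 7.77), and Tpx2, which nucleates spindle microtubules, 56.8 and 31.9 CPM (1.78, 1.30 to 2.48). Per nucleus no such difference was seen. After thinning 5.88% of Q150X members and 6.93% of WT members had at least 5 of the genes, with the list's median at 0.02 when the rule was applied to thinned nuclei. The list's median was 0.83 in endothelial nuclei and -0.47 in fibroblast nuclei.

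**Figure D5:**
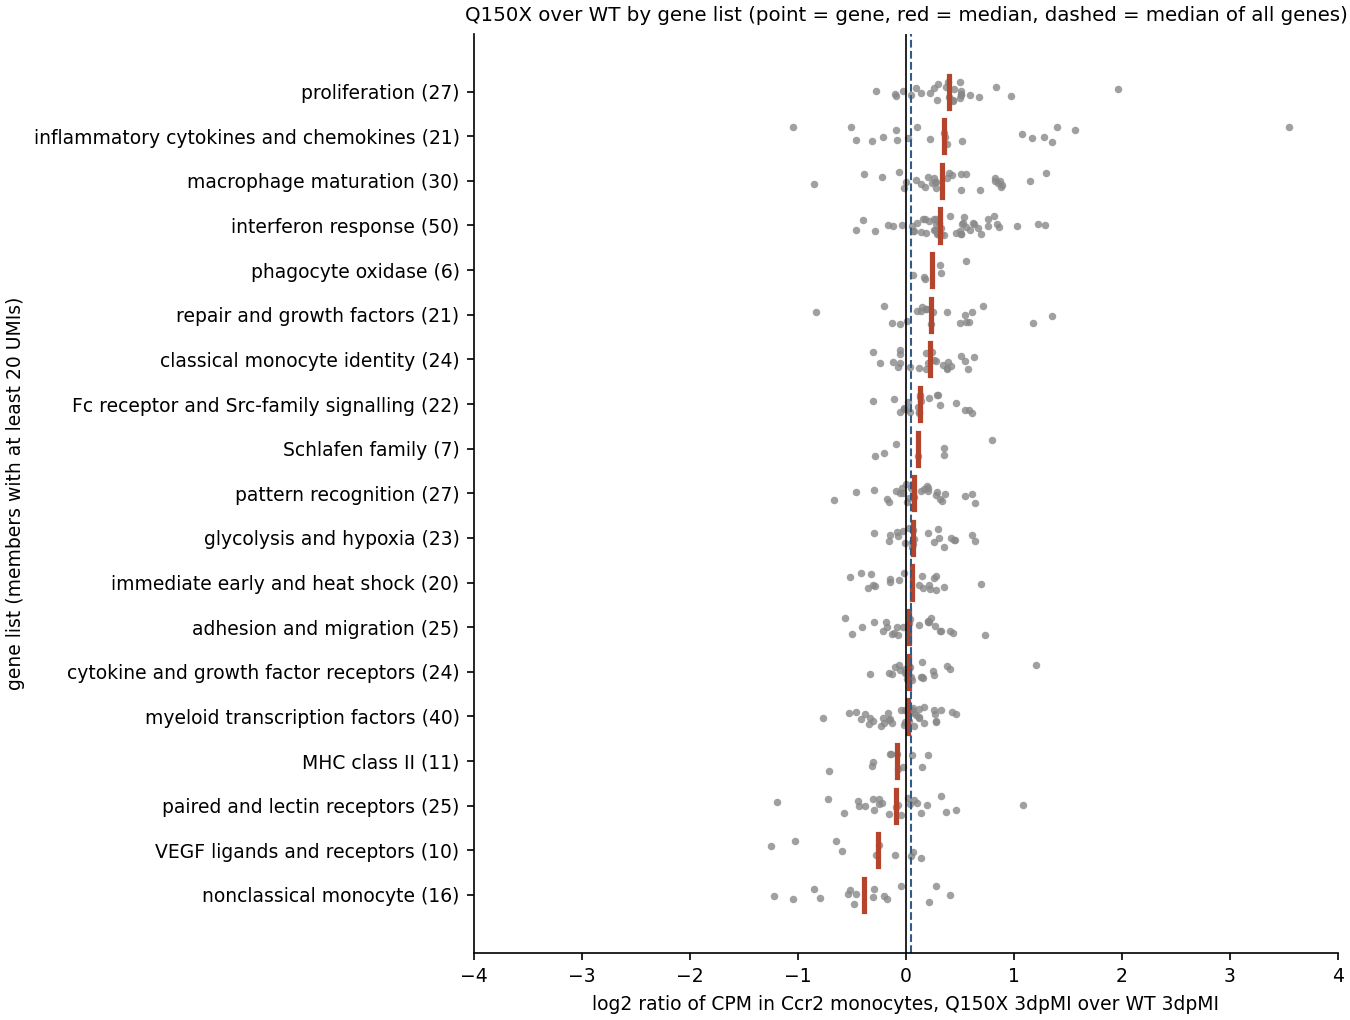
Log2 ratio of CPM, Q150X 3dpMI over WT 3dpMI, in the Ccr2 monocytes for each gene (points) of 19 lists, with the number of measured genes in brackets. Red bars are list medians and the dashed line is the median of all genes, 0.04, and the medians run from 0.40 for proliferation to -0.39 for nonclassical monocyte genes.

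Across all genes, 12.7% of the 10364 genes with at least 50 UMIs were past 1.5-fold, 7.35% upward and 5.32% downward. Ranked by the interval bound nearest to 1, the 10 highest were Spp1, Il7r, Col24a1, Hmmr, Bmpr1b, Padi4, Apoe, Il1r2, Has2 and Lgals1. Il7r, the interleukin 7 receptor, had 34.7 CPM in Q150X and 7.81 CPM in WT (4.44, 2.46 to 8.81), and 29.99 and 9.74 CPM in the other nuclei. Padi4, the enzyme that citrullinates histones in neutrophils, had 53 UMIs in Q150X and 4 in WT, a ratio of 5.35 (1.97 to 20.3). Matrix genes stood among them too, with the collagen gene Col24a1 at 49.4 and 13.7 CPM and the hyaluronan synthase gene Has2 at 21.8 and 6.51 CPM. Fibroblast nuclei had 152 and 163 CPM of Col24a1 and 39.97 and 56.0 CPM of Has2, and fibroblast markers in the members were at 4207 and 2564 CPM, as given above. The 10 lowest were Cd209c, Syn3, Timp3, Mdga2, Chrm3, Samd12, Kcnc2, Kcnq3, Colgalt2 and Lims2. Timp3, an inhibitor of matrix proteases, had 85.4 CPM in Q150X and 249 CPM in WT (0.343, 0.295 to 0.399), and 133 and 225 CPM in the other nuclei. Some of these rest on a single nucleus. Of the 62 Cd209c UMIs in WT, 44 were in 1 nucleus, and so were 28 of the 32 Kcnq3 UMIs. A further ranking, added after the values were seen, kept genes at 3 or more times the level of all other nuclei. Its upper end was Il1r2, Cxcl10, Mx1, Ly86, Slfn4, Ms4a8a, Ms4a4c, Epsti1, Plac8 and Rgs2. Ly86, which forms a receptor with the toll-like protein RP105, had 308 CPM in Q150X and 209.7 CPM in WT (1.47, 1.30 to 1.67), and Epsti1, an interferon-induced gene of macrophages, 222 and 168 CPM (1.32, 1.15 to 1.52). Its lower end, apart from genes carried by 1 nucleus, was Tnip3, Rtn1, Igsf9, Cass4, Spint1, Htr7 and Ctnnd2. Tnip3, a brake on NF-kappa-B signalling, had 13.4 CPM in Q150X and 34.5 CPM in WT (0.388, 0.259 to 0.581), and Rtn1, a reticulon, 43.1 and 85.3 CPM (0.505, 0.399 to 0.641).

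Members varied among themselves, and the splits given here ran the same way in both libraries unless stated. Those with a Slfn4 UMI were 42.8% of Q150X members and 35.2% of WT members. Their summed interferon genes came to 5326 CPM in Q150X and 4298 CPM in WT, and those of members without Slfn4 to 3276 and 2931 CPM. MHC class II genes were lower in the Slfn4 members, at 496 CPM in Q150X and 447 CPM in WT, against 978 and 1039 CPM in members without it. Members with more repair macrophage genes had more maturation RNA. In Q150X the maturation genes summed to 4530 CPM with no repair gene, 6456 CPM with 1 and 9205 CPM with 2 or more, and in WT to 3659, 6430 and 7424 CPM. The members with no repair gene were 26.1% in Q150X and 35.4% in WT, and those with 2 or more 38.6% and 30.7%. Inflammatory genes ran the same way, at 490, 631 and 888 CPM in Q150X and 336, 687 and 739 CPM in WT. So did classical monocyte genes in Q150X, at 5182, 6804 and 7899 CPM. By the rule, members with 2 or more repair genes must have at least 3 rule genes. Their median depth in Q150X was 2979 UMIs, against 1770 UMIs with no repair gene and 2028 UMIs with 1. Members with 2, 3 or at least 4 rule genes had 4519, 7222 and 7884 CPM of classical monocyte genes in Q150X and 4903, 6354 and 7143 CPM in WT, while deeper nuclei can show more of the rule genes. Not every split did so: proliferation genes summed to 1735 CPM in Q150X and 1710 CPM in WT members with a Ccr2 UMI, and to 2311 and 1337 CPM in those without. RNA of other cells differed between the splits as well. In Q150X, fibroblast markers were at 5775 CPM with no repair gene and 4931 CPM with 1. Endothelial markers were at 2082 and 1579 CPM, and cardiomyocyte markers at 1076 and 1373 CPM. With 2, 3 or at least 4 rule genes, fibroblast markers were at 6064, 4082 and 3553 CPM in Q150X. The part of this RNA in the splits was not tested. These splits use genes of the same nuclei and are given as a description.

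Beside repair macrophages, the members had antigen presentation, interferon and classical monocyte genes at higher levels and genes of the mature phagocyte at lower levels. Both groups were picked by weighing monocyte genes, among them the interferon target Slfn4, against repair macrophage genes. Part of these differences may be built in by that choice, and they are given as a description. Over all genes the median log2 ratio was 0.02 in each library. For MHC class II it was 1.52 in Q150X with 10 of 11 genes higher in the members, and 2.39 in WT with 10 of 10, where 52.8% and 51.9% of all genes were higher. For interferon genes it was 0.75 with 50 of 50 and 0.47 with 43 of 47, and for classical monocyte genes 0.61 and 0.72. For maturation genes it was -0.67 with 2 of 31 higher and -0.97 with 5 of 30, and for proliferation genes -0.37 and -0.70 with 1 of 27 in each. Ciita led the genes outside the rule, at 98.8 CPM in members and 13.02 CPM in repair macrophages of Q150X (7.59 times), and 109 and 14.1 CPM in WT (7.78 times). Il1b was at 55.4 CPM in members and 11.04 CPM in repair macrophages of Q150X (5.02), and 69.0 and 10.3 CPM in WT (6.70). Sirpb1a, an activating receptor gene with near-identical copies, was 5.47 and 5.69 times higher, Plac8 6.51 and 6.25 times, and Il1r2 4.59 and 5.59 times. The macrophage proton pump subunit Atp6v0d2 was lower, with 5.52 CPM in members and 54.6 CPM in repair macrophages of Q150X, and 0 UMIs in members against 42.2 CPM in WT. Pdgfc, a platelet-derived growth factor, was at 54.7 CPM in members and 209.9 CPM in repair macrophages of Q150X (0.260), and 37.1 and 190.3 CPM in WT (0.195). Mmp27, a matrix metalloproteinase gene, was at 4.20 and 39.5 CPM in Q150X and at 3.91 and 29.1 CPM in WT.

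Resident macrophages and neutrophils were few, 62 and 25 nuclei in Q150X and 64 and 21 in WT, so ratios beside them are wide. Dock5, an activator of Rac, had 175.0 CPM in Q150X members against 2 UMIs in resident macrophages, a ratio of 19.5 (5.37 to 161), and 193 CPM in WT members against 3 UMIs, 13.5 (4.59 to 66.0). Mefv, the pyrin inflammasome sensor gene, had no UMI in resident macrophages and was at least 5.25-fold higher in Q150X members and at least 5.53-fold higher in WT members, set against 3 UMIs. Vcan was 5.85 and 14.4 times higher in members than in resident macrophages. Beside neutrophils, Tgfbi was 4.30 and 5.79 times higher and Zeb2, a repressor active in monocytes, 3.00 and 2.34 times. Beside all other nuclei, Sirpb1a was 6.53 times higher in Q150X members and 14.7 times higher in WT members, and Ms4a4c 6.11 and 15.1 times. In those other nuclei Ms4a4c was at 18.8 CPM in Q150X and 5.34 CPM in WT. Ccr2, by which the members were chosen, had 0 UMIs in the 25 Q150X and 21 WT neutrophils.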

How the data were processed

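Nuclei of whole mouse hearts were profiled with a droplet 5′ kit in 4 libraries, 1 for each genotype and condition. The deposited values are raw UMI counts per gene and nucleus from Cell Ranger 7.1.0, per the file headers. GRCm39 and Scanpy are named in the submitters' processing notes, with no role. Strand use and the handling of reads shared by near-identical genes are not given in the sources used here. Depth, 2859 and 2131 median UMIs per nucleus in the Q150X and WT infarct libraries, sets the width of every interval.

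Nuclei with at least 500 UMIs and 300 genes entered the rule, UMIs were summed over the members of a library, and rows of 1 symbol were added together. Ratios of CPM have conditional binomial intervals at 95%, levels Poisson intervals and shares Clopper-Pearson intervals, all for counting error only (scipy 1.17.1, numpy 2.4.6, pandas 2.3.3). A gene counted as measured in a list from 20 UMIs in the members of both libraries together, and single genes were ranked from 50. Fibroblast and endothelial nuclei are nuclei of none of the myeloid groups, with fewer than 2 rule genes and under the cardiomyocyte ceiling. They have at least 1% of UMIs from the markers of 1 of these types and under 1% from those of the other. Thinning drew 1000 UMIs per nucleus at random and left shallower nuclei out. Scrublet (scanpy 1.11.5) placed its own threshold at 756 Q150X nuclei and 0 WT nuclei, so the top scores at 0.8% per 1000 nuclei were taken in both. Named genes are the 10 at each end by the interval bound nearest to 1, at or above the level of all other nuclei where higher, and the 8 that differ most beside each myeloid group and all other nuclei, described in part. Mitochondrial, ribosomal, haemoglobin and sex-linked genes and models without a symbol were left out of that choice, and up to 3 genes at each end of a list were open to naming. The rule, the members and the 19 gene lists were chosen with earlier results of these data known. The lists hold Mx2, Ddx58 and Pira1, which matched no symbol and were not analysed here. The interval code was tested on simulated data. Some members of the lists are counted in them but not reported here by name.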

Additional observations from a re-analysis of the deposited data

How the results depend on the processing

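The ratio of monocyte shares, 2.38, was 2.72 with a cardiomyocyte ceiling of 0.5% and 1.61 without nuclei with 3 markers of another class. It was 2.14 among nuclei under the ceiling and 1.09 among myeloid nuclei. At a fold of 2 the percentage of genes past the line was 3.08 in place of 12.7. Leaving out nuclei with 3 markers of another class gave a VEGF list median of 0.15 and ratios of 1.24 for Chrm3, 0.311 for Has2, 0.776 for Il7r, 0.248 for Vegfa, 1.40 for Il1r2 and 2.23 for Slfn4. In members with no repair gene Il7r was 0.827, Spp1 4.61 and Hmmr 16.2, and Hmmr was 0.829 after thinning. Kcnq3 was 1.34 with 3 rule genes, 1.86 without nuclei of other markers, 2.38 and 1.91 with the rule without Sirpb1b or Slfn4, and 1.61 without its richest nucleus. The cause was not tested beyond the fewer nuclei that each setting keeps. List medians ranged from 0.27 to 0.57 for interferon genes, 0.26 to 0.57 for maturation, 0.19 to 0.44 for repair, 0.07 to 0.33 for classical monocyte genes and -0.09 to 0.75 for inflammatory genes. Of the other values 460 for genes and 389 for lists stayed within the interval of the reported value, and 56 and 4 moved past it. No paired analysis was possible because each group is 1 library. Depth limits genes under 20 UMIs, such as Ly6c2 in WT.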
